A study of Mus musculus with 63 samples.

Results

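The Id genes (inhibitors of DNA binding, Id1 to Id4) encode helix-loop-helix proteins that lack the basic DNA-binding region. They pair with E proteins such as Tcf3, Tcf4 and Tcf12, and the pairs do not bind the E-box sequences at which E proteins act on differentiation genes. In many cells Id1, Id2 and Id3 are direct targets of bone morphogenetic proteins (BMPs) through the SMAD1, SMAD5 and SMAD9 factors. In epidermis they are known from proliferating keratinocytes, and the epidermal growth factor receptor (EGFR) is a main growth signal of the same cells.

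The members were chosen by gene symbol in the platform annotation, which gives these 4 of its 14541 genes 5 of 28049 probes. Id1 has 2 probes, called probe 1 and probe 2 here, and Id2, Id3 and Id4 have 1 each. All 5 had a value on all 63 arrays. The family itself was selected on the Id2 log ratios of EGFR knockout against wild-type cells in mock and in ras cultures, so those comparisons are described without a test. Id2 contrasts that use the untreated arms of those comparisons (an inhibitor against none, ras against mock without inhibitor, and differences between such effects) are also given without a p, since a choice by high KO and low WT values favours a rise with inhibitor in WT cells and a fall in KO cells.

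The cells were keratinocytes from the skin of newborn CD-1 mice, either EGFR knockout (KO; the labels name no allele) or EGFR wild type (WT). They were transduced with the v-rasHa oncogene by retrovirus and cultured for 4 days (ras), or were mock controls. Some cultures then received 1 µM of an EGFR tyrosine kinase inhibitor, AG1478, Erlotinib or PD153035, for 2 h. The groups are KO ras with AG1478 (n = 6), with Erlotinib (n = 4), with PD153035 (n = 5) and without inhibitor (n = 5), KO mock (n = 3), WT ras with AG1478, with Erlotinib, with PD153035 and without inhibitor (n = 5 each), WT mock with each of the 3 inhibitors (n = 5 each) and WT mock without (n = 4). Each value is a log2 ratio of the sample to a universal mouse reference RNA pooled from cell lines, so it shows which samples are higher or lower for 1 probe and not which gene is more abundant. The base 2 of the logarithm is an assumption, and in bulk RNA fewer cells with a transcript and less of it per cell cannot be told apart.

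All 16 measured keratinocyte markers together averaged 2.53 to 3.85 by group. The fibroblast, leukocyte and endothelial lists averaged below 0 in all 13 groups, and the 8 melanocyte markers averaged 0.72 to 2.10. Egfr, read by 2 probes, had group means of 1.30 to 2.41 in KO against 1.87 to 2.62 in WT on the first, and 0.25 to 0.77 in KO against 0.14 to 1.86 in WT on the second. No source used here places those probes inside or outside the deletion, so they check no genotype label. Experiment numbers in the labels fall into 8 runs. WT ras without inhibitor lies in runs 1 and 2, with AG1478 in runs 7 and 8, with Erlotinib in runs 5 and 6, and with PD153035 in run 8. KO ras without inhibitor lies in runs 3, 5 and 6, with AG1478 and with PD153035 in run 8, and with Erlotinib in runs 5 and 6. All 4 WT mock groups lie in runs 1 and 2, and KO mock lies in run 4. The dye order of 2 arrays, KO ras with AG1478 replicates 3 and 4, went against their labels, and they were turned by the data. Replicate 4 of KO ras and replicate 4 of KO ras with Erlotinib, both in run 6 and both with reversed dyes, stood below their groups for Id1 probe 1, Id2 and Id3. Id2 values without them are given beside the differences they enter.

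Promoter windows of 250 bases before to 50 after the start were found in RefSeq (GRCm38.p6) for 3 of the 4 genes, Id2, Id3 and Id4. Those of Id2 and Id3 are shown because both genes changed in the comparisons that follow. Capitals mark GGCGCC, a palindrome described at BMP-responsive SMAD sites of Id genes, and CCAAT, the box read by the NF-Y factor, on either strand (ATTGG is CCAAT on the other strand). The Id2 window is chr12:25096043-25096342 on the minus strand and the Id3 window is chr4:136143572-136143871 on the plus strand.
Id2: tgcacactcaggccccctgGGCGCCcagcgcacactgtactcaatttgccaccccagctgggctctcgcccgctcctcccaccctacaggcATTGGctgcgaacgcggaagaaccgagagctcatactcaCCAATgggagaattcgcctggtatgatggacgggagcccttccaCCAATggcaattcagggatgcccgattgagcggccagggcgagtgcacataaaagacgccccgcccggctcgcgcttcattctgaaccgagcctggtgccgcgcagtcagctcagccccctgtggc
Id3: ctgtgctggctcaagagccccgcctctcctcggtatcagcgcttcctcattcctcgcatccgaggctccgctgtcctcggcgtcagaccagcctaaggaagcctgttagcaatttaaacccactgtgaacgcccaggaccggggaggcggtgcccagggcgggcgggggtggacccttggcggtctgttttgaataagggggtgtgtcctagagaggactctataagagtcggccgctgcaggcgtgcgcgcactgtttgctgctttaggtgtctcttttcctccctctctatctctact
The Id2 window held 1 GGCGCC and 3 CCAAT matches, the Id4 window 1 and 2, and the Id3 window neither. Over 32851 promoter windows of the same length, 11.9% held GGCGCC and 37.4% held CCAAT. The E-box pattern CANNTG occurred once in the Id2 window and in neither of the others, against 72.3% of all windows, and no window held the EGR1 sequence GCGTGGGCG, found in 0.612%. These are matches of letters in a window and were not tested for binding.

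Id2 was near or above the reference in WT ras cells given any inhibitor and far below it in WT ras cells without one. With AG1478 the samples read 0.84, 0.74, 0.55, 0.34 and 0.69. With Erlotinib they read 0.71, 0.74, 1.21, 0.78 and 0.73. With PD153035 they read 0.60, 0.85, 0.63, 0.50 and −0.31, against −0.80, −1.62, −2.27, −1.15 and −1.49 in WT ras cells without inhibitor. Every sample with an inhibitor lay above every sample without one. The samples without inhibitor entered the choice of the family and lie in other runs, so this separation is a description. How many of all probes separate in this way was not counted.

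**Figure D1:**
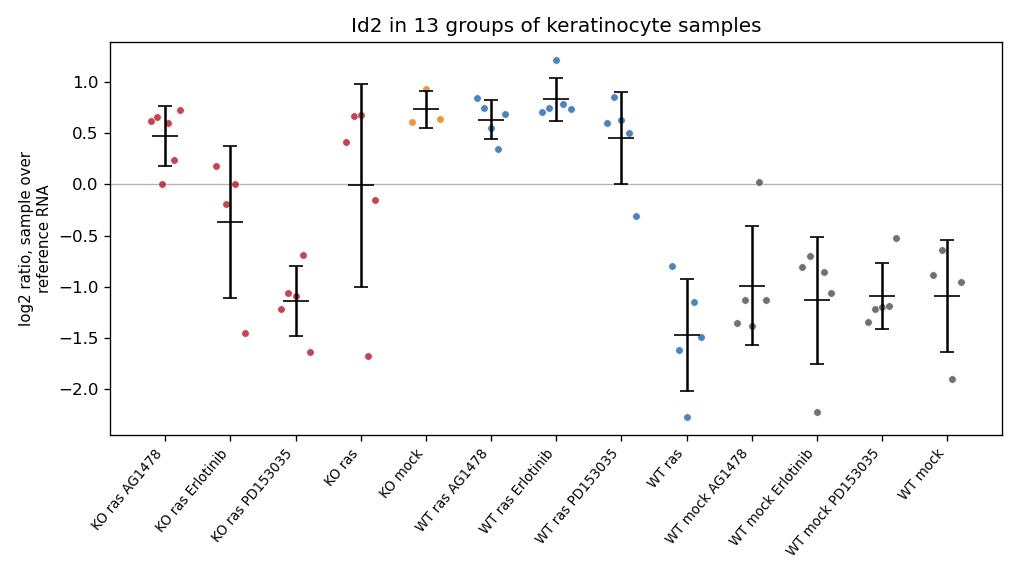
Id2 in each sample (points) of 13 groups, as log2 ratio to the reference RNA, with the group mean and SD (bars); red is KO ras, orange KO mock, blue WT ras and grey WT mock. The 3 inhibitor groups of WT ras average 0.45 to 0.83, and KO ras with PD153035 averages −1.14, beside WT ras at −1.47 and the 4 WT mock groups at −1.13 to −0.99.

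Id2 was above WT ras cells without inhibitor by 2.10 ± 0.33 on the log2 scale with AG1478, 2.30 ± 0.33 with Erlotinib and 1.92 ± 0.33 with PD153035 (SE). As ratios these are 4.28-fold, 4.92-fold and 3.78-fold. These values rest on the same 5 samples without inhibitor, which the choice of the family used and which lie in other runs than the treated ones. Among all probes 1.94% were called with AG1478, 3.41% with Erlotinib and 0.66% with PD153035. Of the other 4 Id probes none was called in these comparisons.

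In WT mock cells the same inhibitors, dose and time left Id2 low. The samples read −1.35, −1.13, −1.38, 0.02 and −1.13 with AG1478. With Erlotinib they read −0.81, −0.70, −2.22, −0.86 and −1.06. PD153035 gave −1.34, −1.22, −1.20, −1.19 and −0.52, against −0.88, −0.64, −1.90 and −0.95 in WT mock cells without inhibitor. The groups overlap, the differences within runs 1 and 2 lay at −0.33 to 0.29, and the 95% intervals of the Id2 difference were −0.59 to 0.82 for AG1478, −0.73 to 0.68 for Erlotinib and −0.69 to 0.72 for PD153035. None of the 15 Id probe values in WT mock cells was called, nor was any of all probes (0.0%). At an unadjusted p under 0.05 limma had 1802, 885 and 956 probes for AG1478, Erlotinib and PD153035, and with array weights it called 28, 6 and 310. The WT mock groups and WT ras without inhibitor lie in runs 1 and 2, and WT ras with inhibitor lies in runs 5 to 8. Low against high Id2 in WT cells thus coincides with run, and run and condition cannot be told apart there.

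Ras and mock cultures of WT cells were also compared under the same inhibitor, where neither arm entered the choice. WT ras cells were above WT mock cells by 1.62 ± 0.33 with AG1478 (limma adjusted p = 0.00152), 1.96 ± 0.33 with Erlotinib (limma adjusted p = 9.2e-05) and 1.55 ± 0.33 with PD153035 (limma adjusted p = 0.00481). The groups do not overlap in any of the 3, and 5.16%, 5.25% and 1.19% of all probes were called. These groups share no run. With run as a random block the adjusted p was 0.0749 for AG1478 and 0.179 for PD153035, and the Erlotinib call held. Without inhibitor, WT ras minus WT mock was −0.36 ± 0.35 (interval −1.07 to 0.35, with 0.183% of all probes called), and KO ras minus KO mock was −0.71 ± 0.38 (interval −1.48 to 0.06, with 0.539% called; −0.33 without KO ras replicate 4). Within runs the WT value was −0.45 in run 1 and −0.40 in run 2. The difference between these 2 effects was −0.35 ± 0.52 (with 0.0108% called; 0.05 without KO ras replicate 4). The inhibitor effect on Id2 in WT ras exceeded that in WT mock cells by 1.98 ± 0.48 for AG1478, 2.32 ± 0.48 for Erlotinib and 1.91 ± 0.48 for PD153035, with 0.0182%, 0.036% and 0.0072% of all probes called, and both untreated arms entered the choice.

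In KO ras cells the inhibitors differed, and PD153035 went with lower Id1 probe 1, Id2 and Id3. With PD153035 the Id2 samples read −1.22, −1.06, −1.09, −0.69 and −1.64, against 0.41, 0.67, 0.68, −1.67 and −0.15 in KO ras cells without inhibitor. Id3 read −0.07, 0.39, −0.21, 0.04 and −0.32 with PD153035, against 1.89, 2.16, 1.80, −0.56 and 1.04 without inhibitor. Id1 probe 1 read 0.72, 1.10, 0.92, 0.78 and 0.73 with PD153035, against 2.27, 2.83, 2.01, 0.75 and 2.22 without inhibitor. The groups overlap in all 3 only through replicate 4 of KO ras.

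The difference was −1.30 ± 0.34 for Id3 (limma adjusted p = 0.019) and −1.16 ± 0.35 for Id1 probe 1 (limma adjusted p = 0.0386), and 4.84% of all probes were called. For Id2 it was −1.13 ± 0.33, whose KO ras arm entered the choice. Id3 and Id1 probe 1 share that arm and correlated with Id2 within groups at 0.50 and 0.60. Their p-values are therefore not fully independent of the choice. Without replicate 4 of KO ras and of KO ras with Erlotinib the values were −1.58 for Id2, −1.64 for Id3 and −1.45 for Id1 probe 1. The groups compared share no run. With run as a random block neither Id3 nor Id1 probe 1 was called (adjusted p = 0.667 and 0.746), and with each sample left out in turn their calls were lost in 5 and 7 of 10 cases. The 8 melanocyte markers averaged 1.10 with PD153035 (samples 0.50 to 1.74), against 1.88 without inhibitor (1.35 to 2.53). The keratinocyte markers averaged 2.99 (2.08 to 3.90) against 3.73 (3.55 to 3.92), and the part of either list in the result was not tested. Id4 gave −0.42 ± 0.42 (limma adjusted p = 0.592) and Id1 probe 2 gave −0.39 ± 0.37 (limma adjusted p = 0.575).

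AG1478 and Erlotinib gave no called Id change in KO ras cells in the fit with equal array weights. Id2 with AG1478 ranged between 0.00 and 0.72 with a median of 0.61, and with Erlotinib it read 0.18, −0.19, 0.00 and −1.45. The Id2 differences from KO ras without inhibitor were 0.48 ± 0.32 for AG1478 (interval −0.16 to 1.12; 0.04 without the 2 reversed KO arrays of run 6) and −0.34 ± 0.35 for Erlotinib (interval −1.05 to 0.36; −0.40 without those arrays). Among all probes 0.229% and 0.0543% were called. Those are 64 and 15 probes, against 3360 and 6635 with array weights, where Id4 was called with Erlotinib (−1.21, adjusted p = 0.00921). Within run 5 the Erlotinib difference was 0.15 (3 samples with Erlotinib and 1 without) and within run 6 it was 0.22 (1 and 1), of the opposite sign to the pooled value.

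**Figure D2:**
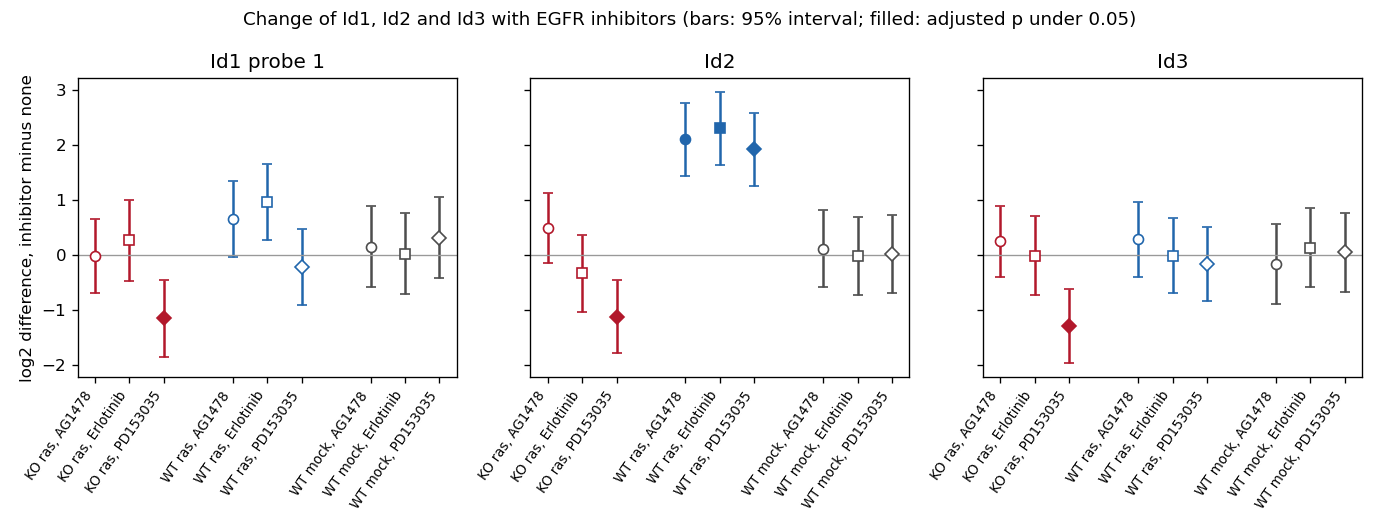
Log2 difference of each inhibitor minus none for Id1 probe 1, Id2 and Id3 in KO ras (red), WT ras (blue) and WT mock cells (grey); circles are AG1478, squares Erlotinib, diamonds PD153035, bars 95% intervals, and filled symbols have an adjusted p under 0.05. Id2 lies at 1.92 to 2.30 in WT ras, and all 3 probes are lower with PD153035 in KO ras. The Id2 values share their untreated arms with the comparisons the family was chosen by, so their filling is no test.

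The Id2 responses of both genotypes are set side by side as a description. The PD153035 effect was −3.05 ± 0.47 in KO ras minus WT ras cells, the Erlotinib effect −2.64 ± 0.48 and the AG1478 effect −1.61 ± 0.46. Each is the KO minus WT difference under inhibitor less that without inhibitor (1.45), so a large part of it is a value the family was chosen by. Without the 2 reversed KO arrays of run 6 they were −3.50, −2.70 and −2.05. Of all probes 0.0933%, 0.0653% and 0.791% were called. For Id1, Id3 and Id4 no such difference was called; the widest was −1.13 ± 0.48 for Id3 with PD153035 (limma adjusted p = 0.412).

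The inhibitors were compared with each other at the same dose and time in 9 pairs, 3 each in KO ras, WT ras and WT mock cells. In KO ras cells, Id2 with AG1478 was above PD153035 by 1.61 ± 0.32 (limma adjusted p = 0.00377) and Id3 by 1.54 ± 0.32 (limma adjusted p = 0.00799), where 0.745% of all probes were called. The samples of these groups do not overlap for Id2 or Id3, and both groups lie in run 8. Id1 probe 1 differed by 1.14 ± 0.33 (limma adjusted p = 0.0882), and with run as a random block by 1.15 (adjusted p = 0.0355). Id3 had a lowest, median and highest value of 0.83, 1.54 and 2.19 with AG1478. Under the signs given by the labels, which turn 2 of the AG1478 arrays, the Id3 difference was 0.80 (adjusted p = 0.209).

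Erlotinib against PD153035 in KO ras cells differed by 1.43 ± 0.37 for Id1 probe 1 (limma adjusted p = 0.0135) and 1.28 ± 0.36 for Id3 (limma adjusted p = 0.0241), where 5.82% of all probes were called. Id1 probe 1 read 3.32, 2.22, 2.54 and 0.95 with Erlotinib, and Id3 read 1.89, 1.89, 1.72 and −0.70, the lowest in each being replicate 4. Without the 2 reversed KO arrays of run 6 the differences were 1.81 and 1.76, and that of Id2 was 1.17 (adjusted p = 0.0144) in place of 0.78 ± 0.35 (limma adjusted p = 0.181). With run as a random block the Id1 and Id3 calls were lost (adjusted p = 0.646 and 0.432), and with each sample left out in turn they were lost in 2 and 6 of 9 cases. The melanocyte markers averaged 2.10 with Erlotinib (1.67 to 2.58), against 1.10 with PD153035 (0.50 to 1.74), and the keratinocyte markers 3.69 (3.35 to 4.13) against 2.99 (2.08 to 3.90). Their part in the result was not tested. AG1478 and Erlotinib were not called apart in KO ras cells for any Id probe, with 0.243% of all probes called. The Id2 value was 0.83 ± 0.34, with an interval of 0.15 to 1.51, and 0.45 without the 2 reversed KO arrays of run 6. In WT ras cells none of the 15 values over 3 pairs was called (0.897%, 1.29% and 0.176% of all probes for AG1478 minus Erlotinib, AG1478 minus PD153035 and Erlotinib minus PD153035). Those of Id2 lay at −0.20 to 0.38 with interval bounds of −0.87 to 1.05. In WT mock cells none of 15 was called either, with Id2 bounds of −0.70 to 0.80.

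Between genotypes, Id2 was compared under each inhibitor, and the values without inhibitor are given as a description. KO mock cells read 0.61, 0.93 and 0.64, against −0.88, −0.64, −1.90 and −0.95 in WT mock cells. The difference was 1.80 ± 0.40 in mock cells and 1.45 ± 0.33 in ras cells (1.87 without KO ras replicate 4), the values for which the family was chosen. Among all probes 1.11% and 1.92% were called in these comparisons, and nothing is read from them here. With PD153035, which that choice did not use, Id2 was lower in KO than in WT ras cells by 1.59 (−1.59 ± 0.33, limma adjusted p = 0.00401), with every KO sample below every WT sample. All 10 arrays lie in run 8, and 1.38% of all probes were called. Leaving out each sample in turn gave −1.79 to −1.46, all called.

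With Erlotinib the KO ras samples again all lay below the WT ras samples for Id2 (−1.19 ± 0.35, limma adjusted p = 0.0747), and 0.967% of all probes were called. Within run 5 the difference was −0.89 (3 KO and 3 WT arrays) and within run 6 it was −2.21 (1 KO and 2 WT arrays), and without KO ras with Erlotinib replicate 4 it was −0.85 (adjusted p = 0.285). With run as a random block it was −1.29 (adjusted p = 0.0276). The melanocyte markers averaged 2.10 in KO ras with Erlotinib (1.67 to 2.58), against 0.72 in WT ras with Erlotinib (0.22 to 1.25), without overlap. The keratinocyte markers averaged 3.69 (3.35 to 4.13) against 2.87 (2.39 to 3.6), and the part of either list was not tested. With AG1478 the groups overlapped (−0.16 ± 0.32, interval −0.80 to 0.47, limma adjusted p = 0.86; 0.03 within run 8, with 6 KO and 2 WT arrays), and 2.22% of all probes were called. The other Id genes had no call in these 3 comparisons, with differences of −0.68 (Id3, PD153035) to 0.72 (Id1 probe 2, AG1478).

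**Figure D3:**
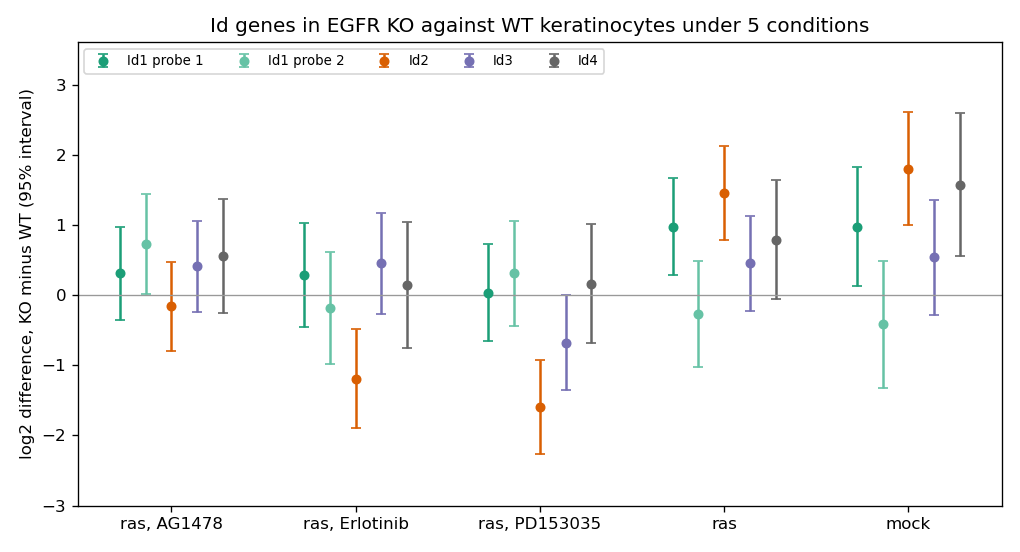
Log2 difference of KO minus WT for the 5 Id probes in ras cells with each inhibitor, in ras cells and in mock cells, with 95% intervals (bars). Id2 is at −1.59 with PD153035 and −1.19 with Erlotinib, beside 1.45 in ras and 1.80 in mock cells, and the last 2 are the values for which the family was chosen.

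Id1 gave 2 readings that did not move together. Its probes had a correlation of −0.02 over the 62 samples, and the sources used here do not say which part of the transcript each reads. Probe 1 was above the reference in every sample (0.37 to 3.32). In run 8 it read 0.55 to 1.10 in WT ras cells with PD153035 and 0.68 and 0.88 in 2 WT ras cultures with AG1478, against 2.06 to 2.45 in the 3 WT ras cultures with AG1478 in run 7. KO ras cells with AG1478, also in run 8, read 1.25 to 2.74. Probe 2 read −0.95 to 2.46 and was called in none of 33 comparisons in the fit with equal array weights.

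Id3 samples ranged from −0.70 to 2.19. Its 13 group means lay at 0.46 to 1.54 apart from KO ras with PD153035, which averaged −0.03 ± 0.27 (SD, n = 5). WT ras cells with PD153035, of the same run, averaged 0.65 ± 0.41 (SD, n = 5). Id4 was the member below the reference in every group, at −1.88 to −0.04. It was called in none of 33 comparisons in the fit with equal array weights. With array weights it was called for Erlotinib minus none in KO ras cells, as given above. Its highest group was KO mock (0.14, −0.05 and −0.20), against −1.66, −2.50, −1.74 and −0.77 in WT mock, a difference of 1.57 ± 0.51 that belongs to the comparisons given without a test.

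**Figure D4:**
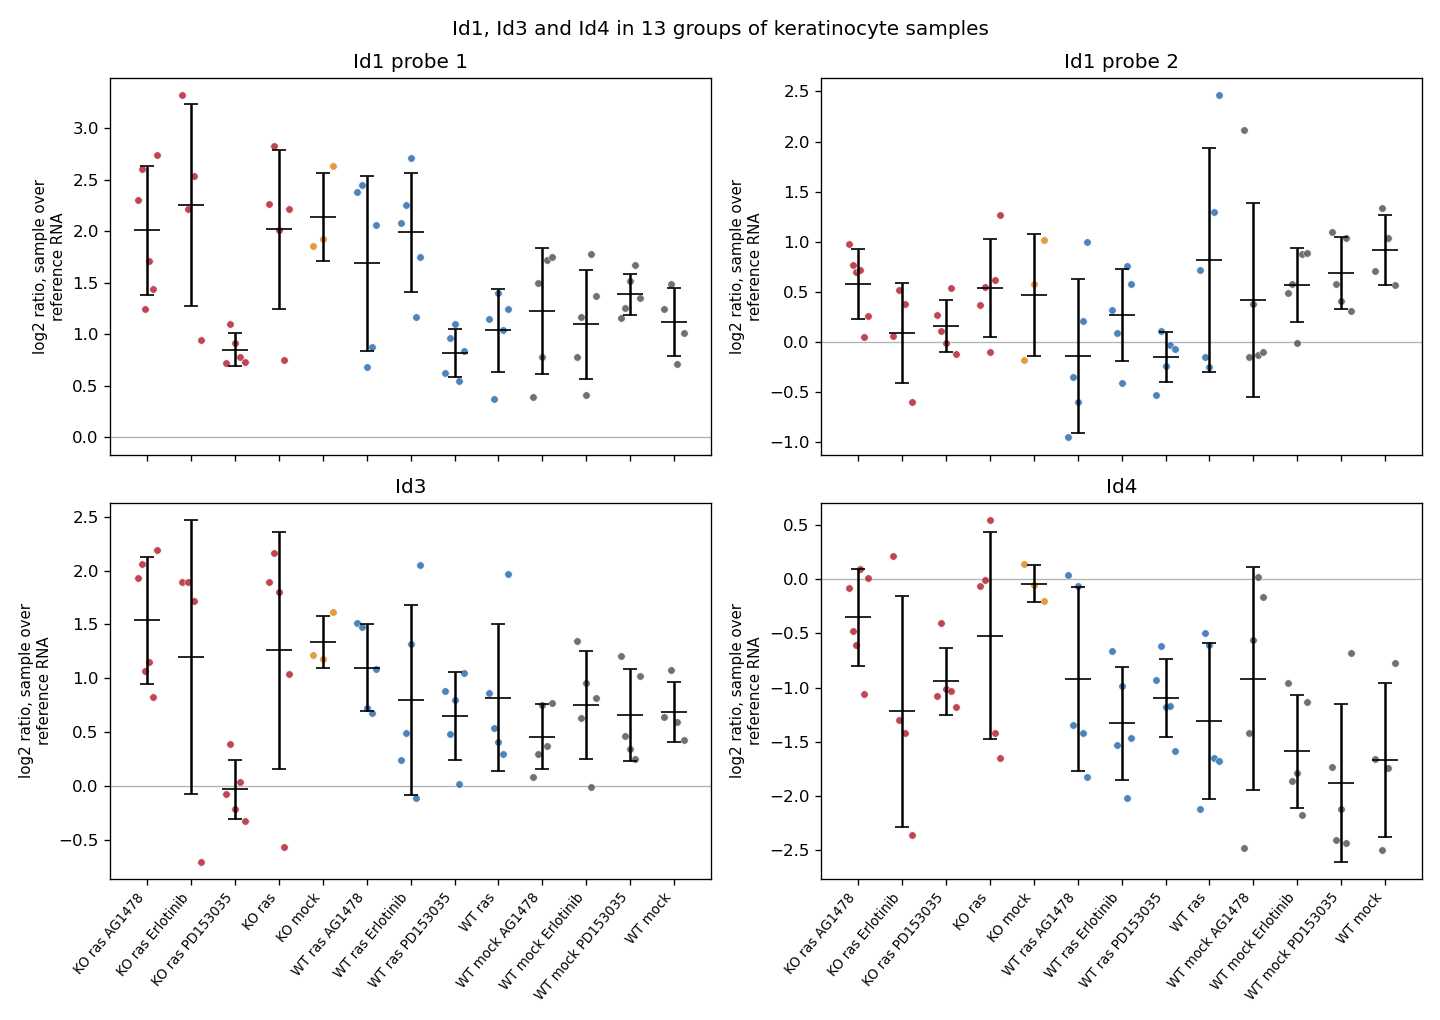
Id1 (2 probes), Id3 and Id4 in each sample (points) of 13 groups, as log2 ratio to the reference RNA, with group mean and SD (bars) and colours by genotype and transduction. KO ras with PD153035 averages 0.85 for Id1 probe 1 and −0.03 for Id3, against 2.02 and 1.26 in KO ras without inhibitor.

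Ordered by mean, the 13 groups run without a gap for most members: in no Id probe did the samples of 2 neighbouring groups separate completely. For Id2 the order from the top was WT ras with Erlotinib (0.83), KO mock (0.73), WT ras with AG1478 (0.63), KO ras with AG1478 (0.47), WT ras with PD153035 (0.45), KO ras (−0.01) and KO ras with Erlotinib (−0.37). Then came the 4 WT mock groups and KO ras with PD153035 between −1.14 and −0.99, and WT ras last at −1.47. The step of 0.63 below KO ras with Erlotinib was the 1 step larger than the SD of samples within groups (0.52), and neighbours elsewhere in the Id2 order did not differ beyond that spread. The largest steps of the other probes were 0.23 to 0.49, below their spreads of 0.57 to 0.70.

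As a description over the 62 samples, which share runs, Id1 probe 1 correlated with Id3 at 0.66 and with Id2 at 0.59, Id2 with Id3 at 0.49, and Id4 with these 3 at 0.38 to 0.45. The genes most like Id1 probe 1 were Cdh1 (E-cadherin, 0.80), Actn4 (an actin crosslinker, 0.76), Tpm2 (tropomyosin, 0.75), Lamtor1 (0.75) and Tax1bp3 (0.74). Those most like Id2 were Csrp2 (a LIM protein, 0.73), Bscl2 (seipin, 0.71), Card19 (0.70), Gabarapl2 (an autophagy protein, 0.70) and P2rx2 (an ATP-gated channel, 0.70). For Id3 they were Map7d1 (0.72), Selenom (0.72), Tspan31 (0.70), Apip (0.68) and Icmt (0.67), and for Id4 Nefl (a neurofilament, 0.78), Dmgdh (0.78), Cxxc5 (0.78), Tdp1 (0.75) and Iqch (0.74). Over the 13 group means the 5 most alike genes shared 1 name with this list for Id1 and 0 for Id2, Id3 and Id4.

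Egr1, an immediate early gene of growth factor signalling, was set beside Id2 with its values known. Egr1 averaged 0.01 ± 0.19 with AG1478, −0.15 ± 0.51 with Erlotinib and −0.16 ± 0.35 with PD153035 in WT ras cells, against 2.63 ± 0.49 in WT ras cells without inhibitor (SD, n = 5 each). In the 4 WT mock groups it averaged 2.32 to 2.60. In KO ras cells with PD153035 it averaged −0.29 ± 0.20, against −0.67 ± 0.42 in KO ras cells without inhibitor (SD, n = 5 each). The correlation of Id2 with Egr1 was −0.77 over 13 group means and −0.62 over 62 samples, but 0.16 over deviations from the group means. The 4 WT mock groups and WT ras without inhibitor are the only groups of runs 1 and 2. High Egr1 therefore coincides with those runs, and run cannot be told apart from condition here.

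**Figure D5:**
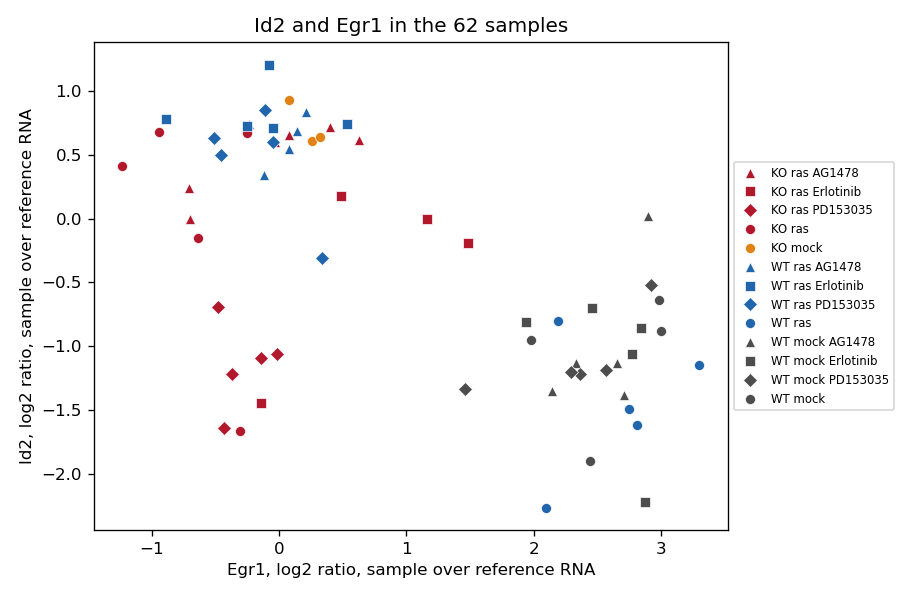
Id2 (y axis) against Egr1 (x axis) in 62 samples, both as log2 ratio to the reference RNA; colours give genotype and transduction, and triangles, squares and diamonds give AG1478, Erlotinib and PD153035. WT mock cells with and without inhibitor and WT ras without inhibitor lie at high Egr1 and low Id2, and KO ras with PD153035 lies low for both. The groups with high Egr1 are also the only ones of runs 1 and 2.

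Genes that work with the Id proteins were looked up in 8 lists with 53 genes, of which 44 were measured. The lists were chosen with earlier results of these data known, so their calls are a description. Over all 35 comparisons 19 of 1540 pairs of gene and comparison were called, 1.23%, against 1.18% of all probes, so the lists were called about as often as probes in general. Their E protein partners had 1 of 3 called once: Tcf4 was lower in WT ras than in WT mock cells under Erlotinib (−0.96 ± 0.27, limma adjusted p = 0.0264). Of 6 BMP receptors, Bmpr1a was lower in that setting with AG1478 (−1.24 ± 0.33, limma adjusted p = 0.019) and Bmpr2 with Erlotinib (−0.95 ± 0.29, limma adjusted p = 0.0377). None of the 4 SMADs and none of the 4 cell cycle inhibitors was called in any of the 35 comparisons in the fit with equal array weights.

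Among 6 BMP inhibitors, Sostdc1 and Smad6 were called. Sostdc1, a secreted BMP and Wnt antagonist, averaged 2.84 ± 0.39 in KO ras cells with AG1478 (SD, n = 6), against −0.02 ± 0.33 in WT ras cells with AG1478 (SD, n = 5), a difference of 2.85 ± 0.62 (limma adjusted p = 0.006). With PD153035 it averaged 1.26 ± 0.80 in KO ras, against 1.13 ± 0.83 in WT ras cells (SD, n = 5 each; limma adjusted p = 0.99). KO minus WT was also called without inhibitor, at 3.16 ± 0.78 in mock cells and 2.89 ± 0.65 in ras cells. The lists were chosen with earlier results of these data known, so both values are a description. The KO and WT groups without inhibitor share no run. With Erlotinib Sostdc1 averaged 3.40 ± 0.72 in KO ras (SD, n = 4), against 1.60 ± 0.62 in WT ras cells (SD, n = 5), not called. Its other calls were WT ras minus WT mock with AG1478 (−2.20 ± 0.65) and Erlotinib minus PD153035 in KO ras cells (2.15 ± 0.69). These were lost in 9 of 25 and 16 of 25 alternatives. KO minus WT was lost in 8 of 22 alternatives in mock cells, 4 of 25 in ras cells and 1 of 27 with AG1478, where it ranged from 1.10 to 2.93. Smad6, an inhibitory SMAD that BMP signalling itself induces, was higher with Erlotinib than without inhibitor in WT ras cells by 2.04 ± 0.58 (limma adjusted p = 0.0382). With PD153035 it gave 2.02 ± 0.58 (limma adjusted p = 0.0849) and with AG1478 1.38 ± 0.58 (limma adjusted p = 0.2). Smad6 had a value on 4 of the 5 WT ras samples without inhibitor, which averaged −2.39 ± 1.73 (SD). The Erlotinib call was lost in 12 of 24 alternatives, with differences of 1.28 to 2.71.

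In KO ras cells with PD153035 against none, 3 of the 44 genes were called, 6.82%, against 4.84% of all probes. Of 6 BMP target transcription factors 1 was lower. Msx2, a homeobox factor of skin appendages, averaged −1.24 ± 0.30 with PD153035, against 1.11 ± 0.65 without (SD, n = 5 each; −2.35 ± 0.54, limma adjusted p = 0.00849). Of 8 BMP ligands, Bmp8a was higher, at 1.91 ± 1.32 with PD153035 against 0.44 ± 0.45 without (SD, n = 5 each; 1.47 ± 0.43, limma adjusted p = 0.0373). Of 7 helix-loop-helix repressors, Bhlhe41 was higher (1.77 ± 0.36, limma adjusted p = 0.00413). Its relative Bhlhe40 averaged −0.23 ± 0.21 with PD153035 (SD, n = 5), against 1.20 ± 0.28 with AG1478 (SD, n = 6) and 1.34 ± 0.10 with Erlotinib (SD, n = 4), and was called in both of those pairs (AG1478 minus PD153035 1.43 ± 0.33, limma adjusted p = 0.0202; Erlotinib minus PD153035 1.57 ± 0.36, limma adjusted p = 0.00575). KO ras cells without inhibitor lay between, at 0.43 ± 0.28 (SD, n = 5), and Bhlhe40 was not called for PD153035 minus none. The medians of the 8 lists in PD153035 minus none in KO ras cells were −0.62 (BMP inhibitors) to 0.30 (BMP target factors), against 0.01 over all probes tested. Over all lists and comparisons the number of calls was 6 with run as a random block and 117 with array weights. Of the 19 calls, 14 were lost with run as a random block and 13 with only the groups compared.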

How the data were processed

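The authors deposited 1 ratio of both dyes per spot for each of 63 arrays, already on a log scale and read here as log2. No source used here states their background correction or scaling. Arrays held 24860 to 28047 values, their medians were −0.072 to 0.067, and the number of arrays limits the precision. The SD of the log ratios on an array was 0.753 to 1.749. By group it was 0.921 to 1.436 in KO ras with PD153035, 1.112 to 1.749 in KO ras without inhibitor and 1.396 to 1.678 in KO ras with Erlotinib. Per the labels' protocols, Trizol RNA was labelled with Cy3 or Cy5 against reference RNA in the other dye, reversed on 12 arrays. An array that correlated negatively with the median profile of the forward-labelled arrays had its sign flipped, so that all read sample over reference; this went against the labels on 2 arrays. Keratinocyte genes then lay above reference pool genes on all 63. Both WT mock arrays labelled repeat 1, 1 per dye order, were averaged, giving 62 samples.

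A linear model held all 13 groups and a dye term (limma 3.58.1 with statmod 1.5.0 in R 4.3.3, moderated by empirical Bayes). A probe entered a comparison when 60 percent or more of each group's arrays had a value, and was called at a Benjamini-Hochberg adjusted p under 0.05 within that comparison. Tables and figures used Python 3.11.15, pandas 2.3.3 and matplotlib 3.10.9. The family and the lists (E protein partners, BMP ligands, receptors, SMADs, inhibitors and target factors, helix-loop-helix repressors, cell cycle inhibitors) were chosen with earlier results of these data known. Named genes are the Id probes, called list members, the 5 genes most correlated with each Id gene over 62 samples (clone and locus codes skipped), Egr1 and Egfr. Of 28049 probes 20925 have 1 symbol, 159 several and 6965 none. On simulated data with 27957 probes for PD153035 minus none in KO ras, changes of log2 1 and 2 were recovered in 18 and 67 percent, with 3.41 percent false calls. The simulated noise was independent between samples and held no run effect. The real groups share no run, so these percentages do not carry over to them.

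Apart from the design statement, which calls replicates biological, no label gives each sample a culture or animal of its own, and p-values reflect a spread between samples that may be technical. Runs are experiment numbers parted at gaps over 100, and their meaning is not given. Same-numbered replicates of different groups did not deviate together as a whole (median correlation 0.024 over 344 pairs, lowest −0.539), so the main fit used no pairing. Pairs within the same run were not looked at separately. Alternatives were the dye term, forward arrays, centring, quantile normalization, filters, array weights, run and replicate blocks, signs by label, fits of the groups compared and each sample left out. The dye term by label, and leaving out the 2 reversed KO arrays of run 6, were added after seeing the data.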

Additional observations from a re-analysis of the deposited data

Results flagged for a closer look

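In 60 group and probe sets of 4 to 6 samples, 7 samples lay far from the rest of their group, where chance gives about 3.0 (1 in 20). For Id2 these were WT ras with Erlotinib replicate 3 (1.21), WT mock with AG1478 replicate 4 (0.02), WT mock with Erlotinib replicate 3 (−2.22) and WT mock with PD153035 replicate 5 (−0.52). For Id3 it was KO ras with Erlotinib replicate 4 (−0.70), for Id4 KO ras with PD153035 replicate 2 (−0.40), and for Id1 probe 2 WT mock with AG1478 replicate 1 (2.12). The response of Id2 differed between groups by a test of the difference in 3 cases: PD153035 in KO ras minus WT ras (−3.05), Erlotinib in KO ras minus WT ras (−2.64) and Erlotinib in WT ras minus WT mock (2.32). All 3 contain untreated Id2 values that the choice of the family used, so the test is not independent of that choice.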

How the results depend on the processing

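The 19 called or described Id differences had 509 alternatives; 435 kept direction and call, and none reversed. The 156 other Id values had 4236, of which 351 changed sign and 35 became called. Array weights gave 16 of these new calls and forward arrays only gave 6. Beyond those named above they are not listed singly. Calls of Id2 that use untreated arms of the comparisons the family was chosen by are listed with the rest and support nothing. Causes of lost calls were not tested.

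With run as a random block the lost calls were, for Id2, ras minus mock in WT with AG1478 (1.60) and PD153035 (1.61), AG1478 (2.07) and PD153035 (1.99) minus none in WT ras, PD153035 minus none in KO ras (−0.89), the Erlotinib effect in KO ras minus WT ras (−2.57) and in WT ras minus WT mock (2.51). For Id1 probe 1 and Id3 they were PD153035 minus none (−0.75 and −1.09) and Erlotinib minus PD153035 (1.01 and 1.31) in KO ras. With only the groups compared, Id2 lost AG1478 (2.10) and PD153035 (1.92) minus none in WT ras, PD153035 minus none in KO ras (−1.13), the Erlotinib (−2.61) and PD153035 (−3.05) effects in KO ras minus WT ras, and the Erlotinib effect in WT ras minus WT mock (2.35). Id1 probe 1 and Id3 lost PD153035 minus none in KO ras (−1.16 and −1.30), and Id3 lost Erlotinib minus PD153035 (1.29). With signs and dye term by label, PD153035 minus none in KO ras was lost for Id2 (−1.13), Id1 probe 1 (−1.16) and Id3 (−1.30), Erlotinib minus PD153035 for Id1 probe 1 (1.44) and Id3 (1.29), AG1478 minus PD153035 for Id3 (0.80), and the Erlotinib effect in WT ras minus WT mock for Id2 (2.32; 2.33 with both disputed arrays left out). Without a dye term PD153035 minus none in KO ras was lost for Id1 probe 1 (−1.16) and Id3 (−1.30), and Erlotinib minus PD153035 for Id3 (1.23). Quantile normalization lost Erlotinib minus PD153035 for Id1 probe 1 (0.99) and Id3 (1.05). Averaging both Id1 probes gave −0.78 for PD153035 minus none and 0.68 for Erlotinib minus PD153035.

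With each sample left out in turn, PD153035 minus none in KO ras lay at −1.55 to −0.96 for Id2, −1.42 to −0.98 for Id1 probe 1 and −1.61 to −1.12 for Id3, without KO ras replicate 4 and replicate 2 at the ends. Erlotinib minus PD153035 lay at 1.10 to 1.78 for Id1 probe 1 and 1.12 to 1.72 for Id3, without Erlotinib replicate 1 and replicate 4. The Erlotinib effect on Id2 in WT ras minus WT mock lay at 2.04 to 2.60. List members gave 19 calls, against 117 with array weights, 30 with signs by label and 6 with run as a random block. With the replicate number as a block no Id call changed (Id2, Erlotinib minus none in WT ras, 2.3).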
